A study of Mus musculus with 4 samples.

Results

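The genes described here are 9 epithelial adhesion genes that Langerhans cells, dendritic cells living in the epidermis, share with the keratinocytes around them: Epcam, Cdh1, Cd24a, Cldn1, Cldn7, Ctnnb1, Ctnna1, Ctnnd1 and Tjp1. They were taken by symbol from a table of 55487 genes, and each symbol had 1 row. Langerhans cells were isolated from the ears of wild-type mice after imiquimod, a Toll-like receptor 7 agonist that gives a psoriasis-like inflammation when put on skin, or after Vaseline as the control. Each treatment had 2 libraries of total RNA, called imiquimod 1 and 2 and Vaseline 1 and 2. All 4 libraries were wild type, and the labels used here give no strain, age, dose or length of treatment. Separate mice are not stated either, so a p-value here measures no more than how far these libraries spread, and that spread may be technical. The library codes in the labels share their letters within Vaseline and differ in each imiquimod library, so a batch those letters might stand for cannot be told apart from treatment. The series title places the comparison in work on PD-L1, cis-urocanic acid and IL-17 producing gamma delta T cells in psoriatic inflammation.

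Langerhans cells sit between keratinocytes and are held there by E-cadherin, the product of Cdh1, which binds E-cadherin on the neighbouring cell. Inside the cell the E-cadherin tail carries beta-catenin (Ctnnb1) and catenin delta (Ctnnd1), and alpha-catenin (Ctnna1) joins beta-catenin to actin. Tight junctions are built from claudins (Cldn1, Cldn7) on the scaffold protein ZO-1 (Tjp1), and Langerhans cells form such junctions with keratinocytes when their dendrites reach through them. EpCAM (Epcam), a surface glycoprotein that marks mouse Langerhans cells, binds claudins and affects how these cells leave the epidermis. CD24 (Cd24a) is a small, heavily glycosylated surface protein anchored by a lipid and also marks mouse Langerhans cells. Activated Langerhans cells are known to loosen E-cadherin contacts before they migrate to lymph nodes.

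Total counts were 14902782 and 20690182 in imiquimod 1 and 2, against 41998172 and 76028955 in Vaseline 1 and 2. Levels are CPM (counts scaled to library size) normalised with TMM factors, and levels set between genes are divided by the kilobases of the gene's exons. The background, taken as the median level of 1493 olfactory and vomeronasal receptor genes, was 0.508 and 0.778 CPM per kilobase in imiquimod 1 and 2, against 0.396 and 0.160 in Vaseline 1 and 2. Of the cell type lists, 10 of 10 Langerhans cell markers, 12 of 12 keratinocyte markers and 8 of 8 epidermal T cell markers lay at 5 times this background or more, as did 3 of 4 sebaceous and follicle, 3 of 7 neutrophil, 3 of 7 fibroblast and 1 of 5 B cell markers. None of the melanocyte, Merkel cell, endothelium or erythroid markers did. The ratio used is a mean over the 4 libraries, each set against its own background. Vaseline 2, with the lowest background, can weigh most in it, and a gene can pass through that library alone. Langerin (Cd207), the lectin that defines Langerhans cells, was present in every library. So was keratin 14 (Krt14) of basal keratinocytes, which stood at 4.69 and 2.60 times Cd207 per kilobase in imiquimod 1 and 2, against 2.13 and 0.944 times in Vaseline 1 and 2. Transcripts of both cell types were thus present in every library, and the level of an adhesion gene that both express cannot be assigned to either.

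Promoters of 6 of the 9 genes were read from the RefSeq promoter table used here (build GRCm38.p6). Each entry spans 250 bases before to 50 after a transcription start. Ctnna1 was not looked up, and Cdh1 and Cd24a had no entry.  The promoters of Epcam, Cldn1 and Cldn7 are shown because their genes code for proteins that bind each other at the cell surface, while their levels differed widely. Capitals mark the E-box CAGGTG or its reverse complement CACCTG, so both strands are covered, the letters bound by the Snail and ZEB repressors of epithelial genes. Each sequence runs 5′ to 3′ on the gene's own strand.
Epcam, chr17:87635729-87636028, plus strand: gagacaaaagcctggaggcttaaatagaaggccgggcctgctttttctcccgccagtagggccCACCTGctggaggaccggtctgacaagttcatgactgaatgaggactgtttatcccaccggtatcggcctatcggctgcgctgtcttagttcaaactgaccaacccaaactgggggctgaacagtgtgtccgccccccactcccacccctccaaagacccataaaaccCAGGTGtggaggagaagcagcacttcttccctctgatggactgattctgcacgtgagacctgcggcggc
Cldn7, second start, chr11:69965171-69965470, plus strand: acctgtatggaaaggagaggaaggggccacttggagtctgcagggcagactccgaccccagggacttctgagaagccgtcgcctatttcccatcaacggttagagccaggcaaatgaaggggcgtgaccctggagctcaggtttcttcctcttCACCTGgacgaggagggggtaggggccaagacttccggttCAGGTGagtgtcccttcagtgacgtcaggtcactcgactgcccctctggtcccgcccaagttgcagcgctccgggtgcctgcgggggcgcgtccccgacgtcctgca
Cldn1, chr16:26371790-26372089, minus strand: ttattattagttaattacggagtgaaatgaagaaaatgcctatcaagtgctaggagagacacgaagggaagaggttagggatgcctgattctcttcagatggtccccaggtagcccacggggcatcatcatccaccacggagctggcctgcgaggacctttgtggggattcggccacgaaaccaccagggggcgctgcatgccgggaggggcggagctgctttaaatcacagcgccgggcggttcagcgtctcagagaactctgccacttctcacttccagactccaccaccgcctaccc
The Epcam promoter held 2 such E-boxes, CACCTG starting 187 bases and CAGGTG starting 19 bases before the transcription start. The second Cldn7 start also had 2, beginning 97 and 57 bases before it. These letters were absent from the Cldn1 window and from the other 6 windows of these genes (1 more for Cldn7, 2 each for Ctnnb1 and Ctnnd1, and 1 for Tjp1). Among all 32851 promoters listed there, 20.2% held at least 1 and 2.88% at least 2. A match describes the letters alone. Of the Snail and ZEB genes, only Zeb1 is given here, as 1 of the 3 genes of smallest p in its list. It had 142 and 146 CPM in imiquimod 1 and 2, against 240 and 383 CPM in Vaseline 1 and 2. Zeb1 did not pass the test (edgeR adjusted p = 0.486). In that list of 18 transcription factors, 12 had a negative log2 fold change and 6 a positive one.

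With the exception of Cldn7, the adhesion genes were among the most abundant transcripts of these libraries. In every library the levels per kilobase of the other 8 exceeded those of at least 95.6% of the genes tested. Cdh1 stood highest on average, at 144 ± 129 CPM per kilobase in imiquimod libraries and 263 ± 89.5 in Vaseline libraries (SD, n = 2 each). Cldn1 followed in imiquimod libraries with 107 ± 70.6, against 224 ± 138 in Vaseline libraries. Ctnna1 had 68.5 ± 35.8 CPM per kilobase in imiquimod libraries and 251 ± 124 in Vaseline libraries, and Epcam had 67.0 ± 58.7 in imiquimod libraries and 186 ± 87.2 in Vaseline libraries.

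The ranges of neighbours in this order overlapped, and the order of a pair within a library does not depend on scaling. Cdh1 exceeded Ctnna1 in 3 of 4 libraries and Cldn1 in 3 of 4, while Ctnna1 exceeded Cldn1 in 2 of 4. Cldn1 exceeded Epcam in 4 of 4. Cd24a, Ctnnb1, Tjp1 and Ctnnd1 formed a lower tier, with mean levels of 36.4, 31.1, 22.0 and 20.4 CPM per kilobase in imiquimod libraries and 106, 56.9, 55.6 and 35.5 in Vaseline libraries. Within that tier Ctnnb1 exceeded Tjp1 in 2 of 4 libraries, and each exceeded Ctnnd1 in at least 3 of 4.

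Cldn7 stood apart from the rest. It had 21 and 55 counts in imiquimod 1 and 2, against 73 and 112 counts in Vaseline 1 and 2. Per kilobase this was 1.36 and 1.06 times the background of imiquimod 1 and 2, against 2.36 and 7.93 times that of Vaseline 1 and 2. Claudin-7 transcripts were thus hardly above the background in the imiquimod libraries, and the sign of the Cldn7 fold change is not fixed by these data: it was -0.52 (log2, SE 0.80) with TMM factors and 0.42 with library totals alone.

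**Figure D1:**
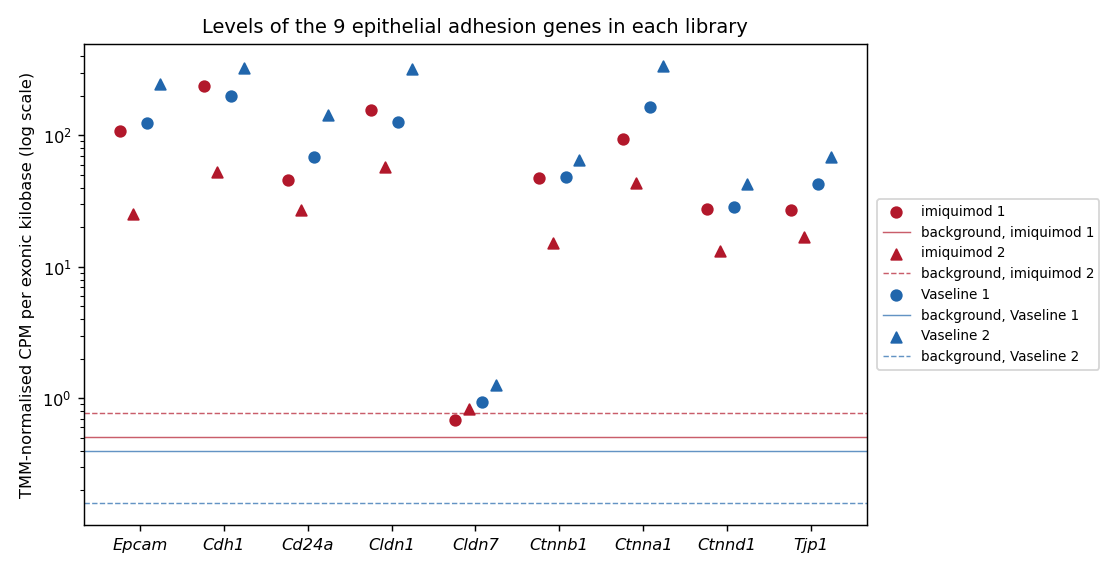
TMM-normalised CPM per exonic kilobase (log axis) of the 9 adhesion genes in each library, with imiquimod in red and Vaseline in blue; lines mark the background of each library. The 8 genes other than Cldn7 sit well above the lines, and Cldn7 lies close to them in imiquimod 1 and 2.

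None of the 9 genes passed the comparison of imiquimod with Vaseline at an adjusted p under 0.05 by the edgeR quasi-likelihood test over all 39439 genes tested, and none had an unadjusted p under 0.05. Of all genes tested, 0.2% passed, 0.0634% as higher and 0.137% as lower in imiquimod. All 9 fitted log2 fold changes were negative, from -1.87 for Ctnna1 to -0.52 for Cldn7, and 8 of 9 stayed negative on library totals alone, where Cldn7 turned positive and 41.5% of genes at 5 times the background or more were negative. A negative value was common in this fit: it was found in 39.4% of all genes tested and in 83.3% of the 14398 genes at 5 times the background or more, to which 8 of the 9 belong. Those genes were chosen by a mean ratio to background in which Vaseline 2 can weigh most, so they may lean to genes high there. The median log2 fold change of those 14398 genes was -0.69 with TMM factors, -0.96 with RLE, -0.34 with upper-quartile factors and 0.12 on library totals. Over all genes tested the median was 0.41, 0.16, 0.76 and 1.30 in the same order of settings. Read against -0.69, the 9 values had a median of -1.06. When the genes above background were fitted alone, which brings their median to 0.08, the 8 members in that fit ran from -1.12 for Ctnna1 to -0.08 for Ctnnd1. All 8 were again negative, where 44.4% of the genes in that fit were. None was called there (0% of genes passed by edgeR). Cd24a and Ctnna1 had an unadjusted p under 0.05, as did 771 higher and 690 lower ones of all 14398 genes in that fit.

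DESeq2 called Ctnna1 as lower, 1 of the 8 genes to which it gave an adjusted p, since Cldn7 received none. Of the 51889 genes fitted by DESeq2, 8631 received an adjusted p, and of these 8.43% were called lower and 0.0579% higher, 8.49% in all. Ctnna1 had a DESeq2 log2 fold change of -2.20 (adjusted p = 0.0300), and this call was lost when genes above background were fitted alone (DESeq2 adjusted p = 0.112, with 1.1% of genes called lower and 1.8% in either direction). Limma-voom called none of the 9, with 0.449% of all genes called, and gave 3 of them, Epcam, Cd24a and Ctnna1, an unadjusted p under 0.05, as it did 16.5% of all genes.

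**Figure D2:**
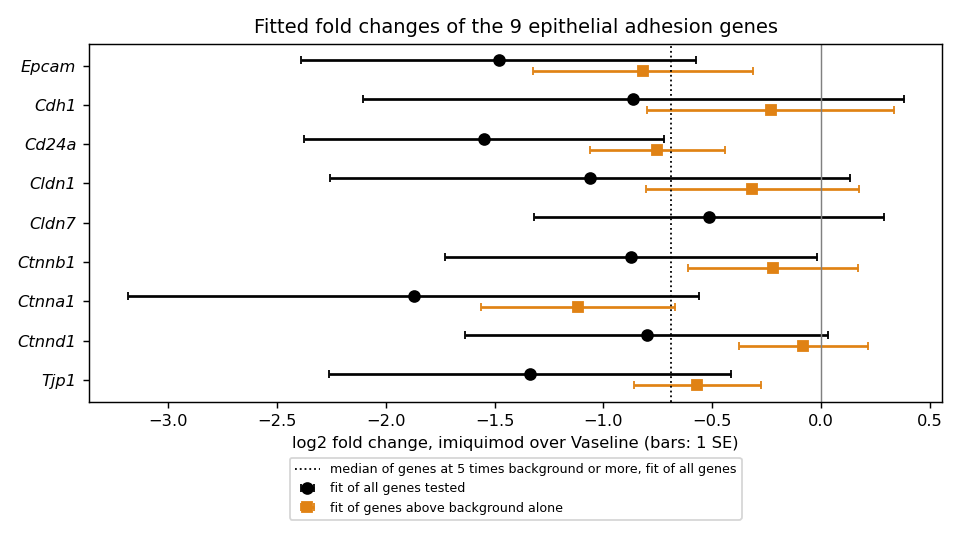
Fitted log2 fold changes of imiquimod over Vaseline with 1 SE for each adhesion gene, in the fit of all genes tested (black) and of genes above background alone (orange, without Cldn7). All points lie left of 0, none passed, and the dotted line at -0.69 is the median of genes at 5 times the background or more in the first fit; on library totals alone Cldn7 turned positive.

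The receptor at the centre of the group, Cdh1 (E-cadherin; ENSMUSG00000000303, GRCm38 chr8:106603351-106670246, plus strand), had 1078 and 243 CPM in imiquimod 1 and 2, against 912 and 1490 CPM in Vaseline 1 and 2. Imiquimod 1 fell between the Vaseline libraries and imiquimod 2 lay 4.44 times below imiquimod 1, so the groups overlapped. Its log2 fold change was -0.86 (SE 1.24, edgeR adjusted p = 0.690), with -0.15 when imiquimod 2 was left out and -2.38 when imiquimod 1 was. Cdh1 thus showed no difference larger than the spread between libraries. Keratinocyte markers moved the same way between the imiquimod libraries: their summed level was 18740 CPM in imiquimod 1 and 4746 CPM in imiquimod 2, against 18741 and 22352 CPM in Vaseline 1 and 2. Their part in the low Cdh1 value of imiquimod 2 was not tested. Fewer cells of a type and less RNA per cell cannot be told apart in these bulk samples.

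Of the catenins, Ctnna1 (alpha-catenin; ENSMUSG00000037815, chromosome 18) differed most. It had 603 and 278 CPM in imiquimod 1 and 2, against 1048 and 2173 CPM in Vaseline 1 and 2. Both imiquimod libraries lay below both Vaseline libraries, also on library totals. The log2 fold change was -1.87 (SE 1.31, edgeR adjusted p = 0.456), with -1.12 (SE 0.45, edgeR adjusted p = 0.486) among genes above background alone.

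Beta-catenin, which also carries Wnt signals to the nucleus, had less of a gap. Ctnnb1 (ENSMUSG00000006932, chr9:120929216-120960507, plus strand) had 245 and 78.2 CPM in imiquimod 1 and 2, against 251 and 340 CPM in Vaseline 1 and 2. The groups touched: imiquimod 1 lay just under Vaseline 1, and on library totals they overlapped. Its log2 fold change was -0.87 (SE 0.86, edgeR adjusted p = 0.565). Some 15.1% of its exonic bases are shared with Ulk4 on the opposite strand and with a microRNA gene, and Ulk4 itself had 126 and 392 counts in imiquimod 1 and 2, against 463 and 344 in Vaseline 1 and 2.

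Ctnnd1 (catenin delta, which holds E-cadherin at the surface; ENSMUSG00000034101, chr2:84600071-84650765, minus strand) had the smallest fold change of the catenins. It had 203 and 96.1 CPM in imiquimod 1 and 2, against 208 and 312 CPM in Vaseline 1 and 2. Its log2 fold change was -0.80 (SE 0.83, edgeR adjusted p = 0.583) and -0.08 among genes above background alone. An overlapping gene model on the same strand, Gm28635, shares 61.2% of its exonic bases and had 0 counts in each of the 4 libraries.

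Epcam (ENSMUSG00000045394, chr17:87635979-87651129, plus strand) had 238 and 55.8 CPM in imiquimod 1 and 2, against 274 and 544 CPM in Vaseline 1 and 2. Both imiquimod libraries were below both Vaseline libraries on this scale and on library totals, but imiquimod 1 only narrowly so, and the imiquimod libraries differed 4.27-fold. The log2 fold change of -1.48 (SE 0.91, edgeR adjusted p = 0.418) became -0.77 without imiquimod 2 and -2.95 without imiquimod 1. Its mean was 2.78 times as high in Vaseline as in imiquimod libraries, a smaller gap than that within the imiquimod group. Without any 1 library, the values of the other 7 genes ran from -2.61 to -0.25, the lowest for Ctnna1 and the highest for Cldn1, and all stayed negative.

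Cd24a (ENSMUSG00000047139, chr10:43578284-43584265, plus strand) had 118 and 70.2 CPM in imiquimod 1 and 2, against 177 and 372 CPM in Vaseline 1 and 2. Here the imiquimod libraries lay closer together than for Epcam and both were below the Vaseline libraries, also on library totals. The log2 fold change was -1.55 (SE 0.83, edgeR adjusted p = 0.377), the smallest p of the 9 genes in the fit of all genes. Of the 50-base stretches of its transcripts 2.75% also occur in the processed pseudogene Gm6212, which had 11 counts or fewer in each library.

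The tight junction genes gave a mixed picture. Cldn1 (ENSMUSG00000022512, chr16:26356642-26371841, minus strand) had 762 and 278 CPM in imiquimod 1 and 2, against 611 and 1559 CPM in Vaseline 1 and 2. Imiquimod 1 lay above Vaseline 1, so the groups overlapped, and the log2 fold change was -1.06 (SE 1.19, edgeR adjusted p = 0.610). Tjp1 (ENSMUSG00000030516, chr7:65296165-65527781, minus strand) did not overlap: it had 212 and 132 CPM in imiquimod 1 and 2, against 333 and 536 CPM in Vaseline 1 and 2. It also kept its groups apart on library totals. Its log2 fold change was -1.34 (SE 0.92, edgeR adjusted p = 0.451). Cldn7 (ENSMUSG00000018569, chr11:69964779-69967885, plus strand) had 1.34 and 1.61 CPM in imiquimod 1 and 2, against 1.82 and 2.47 CPM in Vaseline 1 and 2, and its groups overlapped on library totals.

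Across the 9 genes, 7 had both imiquimod libraries below both Vaseline libraries in normalised CPM, and none the reverse. The share of genes lower in this way was 20.9% of all genes tested and 50.7% of genes at 5 times the background or more, and the share higher in this way was 30.5% and 5.42%. On library totals 4 remained apart, Epcam, Cd24a, Ctnna1 and Tjp1, where 7.42% of all genes and 19.5% of genes at 5 times the background or more did. Vaseline 2 held the highest normalised level for all 9 genes, and imiquimod 2 the lowest for 8 of them, all but Cldn7. On library totals Vaseline 2 was highest for 5 genes, imiquimod 1 for Cdh1, Ctnnb1 and Ctnnd1, and imiquimod 2 for Cldn7. Imiquimod 2 was again the lowest for the same 8 genes on that scale. The TMM factors were 1.05 and 1.66 in imiquimod 1 and 2, against 0.955 and 0.598 in Vaseline 1 and 2, which widens the gap between Vaseline 2 and imiquimod 2.

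Ratios between genes of 1 library do not depend on the scaling between libraries. Alpha-catenin was compared in this way with only 3 of the other adhesion genes, Cdh1, Ctnnb1 and Tjp1. Per kilobase, Ctnna1 stood at 0.398 and 0.813 times Cdh1 in imiquimod 1 and 2, against 0.818 and 1.04 times in Vaseline 1 and 2. Relative to Ctnnb1 it stood at 1.99 and 2.87 times in imiquimod 1 and 2, against 3.38 and 5.16 times in Vaseline 1 and 2. Relative to Tjp1 the ratio was 3.46 and 2.55 in imiquimod 1 and 2, against 3.83 and 4.93 in Vaseline 1 and 2. In all 3 ratios both imiquimod libraries were below both Vaseline libraries, with mean log2 differences of -0.70, -0.81 and -0.55. The ratios share Ctnna1, so they are not 3 independent results. Of all genes tested, 0.867% lay lower in this way relative to Cdh1, 1.65% relative to Ctnnb1 and 1.61% relative to Tjp1. Among genes at 5 times the background or more these shares were 1.95%, 4.01% and 4.06%. The margin over Cdh1 was narrow in imiquimod 2. The order does not extend to Epcam. Per kilobase, Ctnna1 lay below Epcam in imiquimod 1 (93.8 against 109 CPM) and well above it in imiquimod 2 (43.2 against 25.4 CPM). In Vaseline 1 and 2 it lay above Epcam, with 163 and 338 against 125 and 248 CPM.

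The other partners of E-cadherin kept no such order. The ratio of Ctnnb1 to Cdh1 was 0.200 and 0.284 in imiquimod 1 and 2, against 0.242 and 0.201 in Vaseline 1 and 2. Ctnnd1 relative to Cdh1 was 0.118 and 0.247 in imiquimod 1 and 2, against 0.142 and 0.131 in Vaseline 1 and 2, and Cldn1 relative to Tjp1 was 5.81 and 3.40 in imiquimod 1 and 2, against 2.96 and 4.69 in Vaseline 1 and 2. In these 3 ratios the groups overlapped, and the imiquimod libraries lay on both sides of at least 1 Vaseline library. With 2 libraries against 2 the exact permutation test (two-sided) cannot go below 0.33, so no ratio can pass, and each of the 3 Ctnna1 ratios reached that floor (exact p = 0.33).

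**Figure D3:**
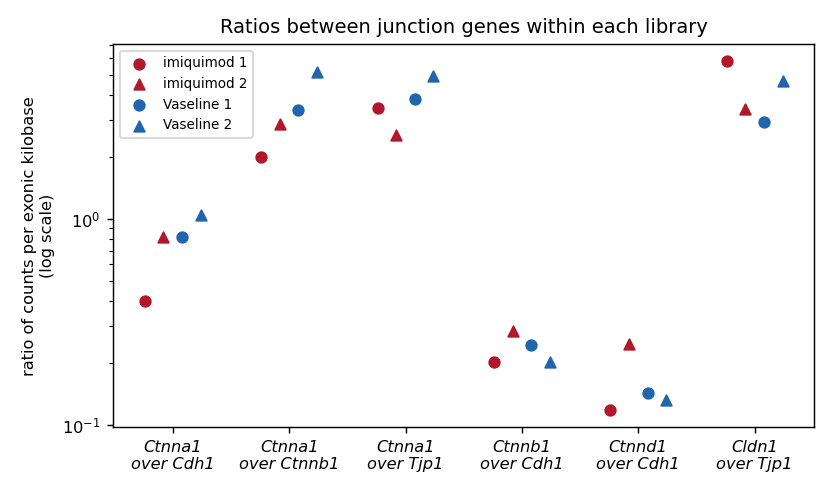
Ratios of counts per exonic kilobase (log axis) within each library, imiquimod in red and Vaseline in blue. For the 3 ratios with Ctnna1 on top both imiquimod libraries lie below both Vaseline libraries, while the other 3 ratios overlap.

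For 8 of the 9 genes the ratio to Cd207 was higher in both imiquimod libraries than in both Vaseline libraries, and the exception was Epcam. Since Cd207 itself was far lower in imiquimod, at 1201 and 575 CPM in imiquimod 1 and 2 against 2255 and 6883 CPM in Vaseline 1 and 2, the same held for 83.2% of all genes tested and 83.4% of those at 5 times the background or more, and the opposite for 0.145% and 0.215%. The share among the adhesion genes is near that background. Cdh1 stood at 0.299 and 0.141 times Cd207 per kilobase in imiquimod 1 and 2, against 0.135 and 0.0720 times in Vaseline 1 and 2. Ctnna1 had the smallest difference of the 8, at 0.119 and 0.114 in imiquimod 1 and 2, against 0.110 and 0.0748 in Vaseline 1 and 2. Epcam overlapped, with 0.137 and 0.0674 in imiquimod 1 and 2, against 0.0841 and 0.0548 in Vaseline 1 and 2. With the background subtracted from all counts, Cldn7 changed sides and was lower relative to Cd207 in both imiquimod libraries.

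Relative to keratin 14, Epcam and Ctnna1 were the 2 genes lower in imiquimod without overlap. Epcam stood at 0.0293 and 0.0259 times Krt14 per kilobase in imiquimod 1 and 2, against 0.0394 and 0.0581 in Vaseline 1 and 2. Ctnna1 stood at 0.0254 and 0.0440 times Krt14 in imiquimod 1 and 2, against 0.0516 and 0.0792 in Vaseline 1 and 2. For these 2 both imiquimod libraries were below both Vaseline libraries, as for 1.88% of all genes tested and 4.57% of genes at 5 times the background or more. A ratio higher in both imiquimod libraries was found for 32.9% of all genes and 16.9% of genes at 5 times the background or more, and for 0 of the 9. The other 7 overlapped, though with the background subtracted Cldn7 and Ctnnb1 were also lower in both imiquimod libraries. Ctnnb1 in particular kept a nearly constant ratio to Krt14, at 0.0128 and 0.0153 in imiquimod 1 and 2, against 0.0153 and 0.0153 in Vaseline 1 and 2. In all, 25 ratios were computed, 7 between adhesion genes and 9 to each marker, and none had an exact permutation p below 0.33.

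**Figure D4:**
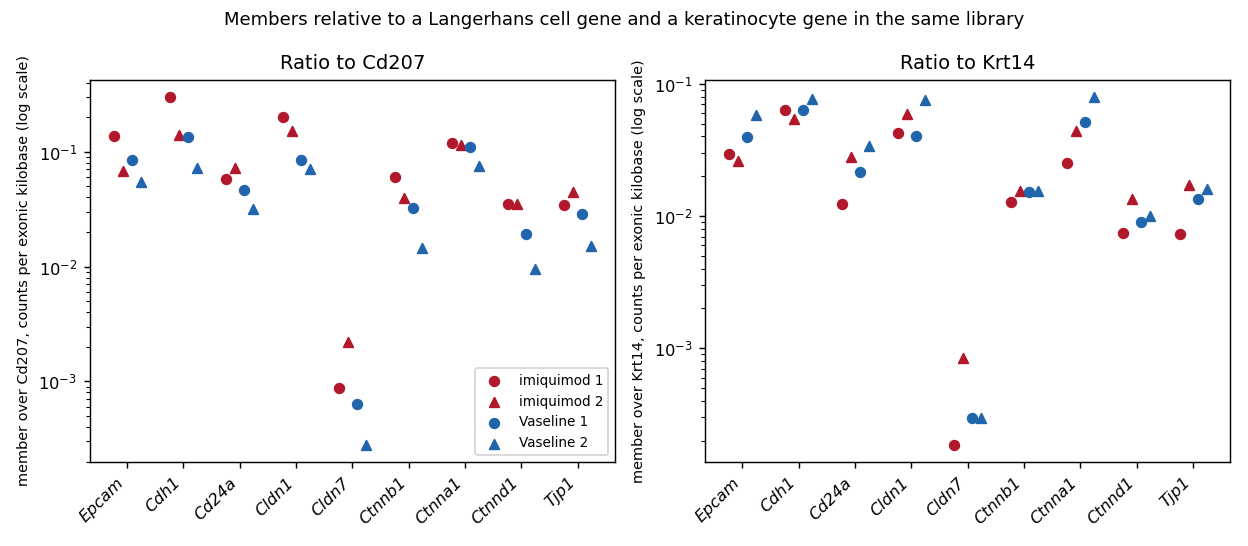
Each adhesion gene relative to Cd207 (left) and to Krt14 (right), as ratios of counts per exonic kilobase on a log axis, imiquimod in red and Vaseline in blue. On the left both imiquimod libraries lie above both Vaseline libraries for all genes but Epcam (Cldn7 changed sides with the background subtracted); on the right they lie below for Epcam and Ctnna1 and overlap for the rest (Cldn7 and Ctnnb1 also lie below with the background subtracted).

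The genes whose levels ran most like those of each adhesion gene were looked for among 204 genes of the other lists, as the smallest root mean square difference of log2 levels, each centred on its mean over the 4 libraries. Cdh1 ran closest to Lgals7, the keratinocyte lectin galectin-7, at 0.07, and to Krt14 at 0.18, while Cd207 ranked 93rd at 0.73. Ctnnb1 differed from Krt14 by 0.11. Cldn1 was closest to Ocln and Marveld2, 2 further tight junction membrane proteins, at 0.23 and 0.26. E-cadherin, beta-catenin and claudin-1 ran more closely with Krt14 than with Cd207, which ranked 108th for Ctnnb1 and 79th for Cldn1.

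Ctnna1 differed from these: Cd207 ranked 6th for it at 0.27 and Krt14 55th at 0.59. Its closest genes were mt-Co3, a mitochondrially encoded oxidase subunit, at 0.17 and Ctnnbip1, a beta-catenin inhibitor, at 0.20. Epcam was closest to the tetraspanin Cd9 at 0.19 and to Ocln at 0.31, with Krt14 ranked 8th at 0.45 and Cd207 19th at 0.49. Cd24a was closest to Spint1, a protease inhibitor, at 0.07 and to mt-Atp6 at 0.10. Like Ctnna1, it ran nearer to Cd207 (ranked 44th at 0.44) than to Krt14 (ranked 60th at 0.54). Tjp1, Ctnnd1 and Cldn7 ran nearer to Krt14 than to Cd207. Tjp1 was closest to Rnf43, a Wnt receptor ligase, at 0.07 and to mt-Atp6 at 0.09. Ctnnd1 ran with Csnk1a1 and Apc, which both act in beta-catenin turnover, at 0.05 and 0.06. Cldn7 ran with Xcl1 and Dsc1 at 0.10 and 0.13, and its low counts limit that reading. These are descriptions over 4 libraries.

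Other genes of the same structures were taken from 8 lists of 118 genes in all. A negative value is read here against the 39.4% of all genes and 83.3% of genes at 5 times the background or more that had one. None of the 118 passed by edgeR, where 0.2% of all genes did, and 7 had an unadjusted p under 0.05. Among all 39439 genes tested, 3405 higher and 2010 lower ones had such a p in the same fit. DESeq2 called 3 of the 118 as lower (Spint1, Pygo2 and Ccnd1), where it called 8.43% of the genes with an adjusted p lower. Of 17 other adherens junction genes 12 had a negative log2 fold change, with a median of -0.42 that turned to 0.23 on library totals. Pkp4, an armadillo protein, had 85.2 and 41.0 CPM in imiquimod 1 and 2, against 115 and 154 CPM in Vaseline 1 and 2 (log2 fold change -1.10, edgeR adjusted p = 0.437). Ajuba, a LIM protein at junctions, had -0.88, and Cdh2, the N-cadherin that replaces E-cadherin in many mesenchymal cells, had 1.27 at 1.17 times the background. Neither passed (edgeR adjusted p = 0.451 and 0.367).

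Of 23 other tight junction genes 12 had a negative value and 11 a positive one, with a median of -0.07 that turned positive with upper-quartile factors and on library totals, at 0.30 and 0.74. Ocln, which seals tight junctions with claudins, was like Tjp1 lower in both imiquimod libraries than in both Vaseline libraries. It had 129 and 48.5 CPM in imiquimod 1 and 2, against 153 and 272 CPM in Vaseline 1 and 2 (log2 fold change -1.27, edgeR adjusted p = 0.421). Magi3, a scaffold, had -1.11 (edgeR adjusted p = 0.399). Cldn4, a claudin of barrier epithelia, was carried by 1 library, with 482 and 25.1 CPM in imiquimod 1 and 2, against 54.6 and 153 CPM in Vaseline 1 and 2. Its log2 fold change of 1.28 (SE 0.82, edgeR adjusted p = 0.427) turned to -2.13 without imiquimod 1.

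Desmosomes are the keratin-anchored junctions of keratinocytes and served as a comparison. Of 13 desmosome genes 11 had a negative value, with a median of -0.44 that turned to 0.35 on library totals. Dsg1a and Dsg1b, near-identical desmogleins whose reads may be split between copies, had log2 fold changes of -1.64 and -1.23, and Dsc2 had 0.91 at 2.38 times the background. None of the 3 passed (edgeR adjusted p = 0.374, 0.399 and 0.456). The summed level of the list was 7801 and 2110 CPM in imiquimod 1 and 2, against 7411 and 7373 CPM in Vaseline 1 and 2, so that imiquimod 2 alone was low.

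Among 14 partners of EpCAM and CD24, 9 had negative and 5 positive values, with a median of -0.56 and 0.28 on library totals. Spint1, an inhibitor of the protease matriptase that cleaves EpCAM, had 44.3 and 28.8 CPM in imiquimod 1 and 2, against 73.1 and 162 CPM in Vaseline 1 and 2. Both imiquimod libraries were lower, with a log2 fold change of -1.69 (SE 0.71, edgeR adjusted p = 0.303, DESeq2 adjusted p = 0.0414). Among genes above background alone the DESeq2 call was lost (DESeq2 adjusted p = 0.294). Adam10, a protease that sheds E-cadherin, had 40.1 and 21.0 CPM in imiquimod 1 and 2, against 60.4 and 91.1 CPM in Vaseline 1 and 2 (log2 fold change -1.32, edgeR adjusted p = 0.360). Siglecg, a receptor of CD24, had 1.46 at 2.36 times the background (edgeR adjusted p = 0.324).

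Of 18 epithelial and mesenchymal transcription factors 12 had a negative value, with a median of -0.27 that turned positive with upper-quartile factors and on library totals. Tcf3 had -1.29, Twist1 -1.69 at 0.988 times the background and Zeb1 -1.12, and none passed (edgeR adjusted p = 0.364, 0.483 and 0.486). Of 14 regulators of beta-catenin 13 had a negative value, with a median of -0.84 and -0.03 on library totals. Ctnnbip1 had -1.57, Pygo2, a nuclear cofactor, -1.49 and Tcf7l1 1.21 at 2.63 times the background (edgeR adjusted p = 0.288, 0.303 and 0.379). The DESeq2 call of Pygo2 (DESeq2 adjusted p = 0.0484) was also lost among genes above background alone (DESeq2 adjusted p = 0.552).

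Of 10 beta-catenin target genes 7 had a negative and 3 a positive value, with a median of -0.38 and 0.36 on library totals. Ccnd1, cyclin D1, had 33.7 and 20.7 CPM in imiquimod 1 and 2, against 86.0 and 132 CPM in Vaseline 1 and 2. Its log2 fold change was -2.01 (SE 0.70, edgeR adjusted p = 0.213), and DESeq2 called it among all genes and among genes above background alone (DESeq2 adjusted p = 0.0122 and 0.0177). Of its exonic bases 23.4% are shared with other genes. Lef1 had 1.33 at 0.992 times the background and Rnf43 -1.25 (edgeR adjusted p = 0.359 and 0.375).

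Of 9 genes of E-cadherin turnover and its receptors 7 had a negative and 2 a positive value, with a median of -0.63 and 0.14 on library totals. Itgae and Itgb7, which form the T cell integrin that binds E-cadherin, had log2 fold changes of -0.99 and -1.08, and Rab11a, which recycles E-cadherin, -0.98 (edgeR adjusted p = 0.429, 0.395 and 0.449). Itgae had 21.4 and 31.4 CPM in imiquimod 1 and 2, against 43.8 and 61.4 CPM in Vaseline 1 and 2. Epidermal T cell markers, which lay at 5 times the background or more, summed to 156 and 129 CPM in imiquimod 1 and 2, against 269 and 265 CPM in Vaseline 1 and 2, and their part in the Itgae values was not tested.

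The marker lists moved between the same libraries. Langerhans cell markers summed to 8302 and 7132 CPM in imiquimod 1 and 2, against 23076 and 60882 CPM in Vaseline 1 and 2. Their most abundant genes were Cd74, the MHC class II invariant chain, and Mfge8, a secreted bridging protein, and those of the keratinocyte list were Krt14 and Krt5. The Langerhans cell list had a median log2 fold change of -2.39, with 10 of 10 negative and none called by edgeR. DESeq2 called 9 of them lower among all genes, where it called 8.43% of genes lower, and 6 among genes above background alone. It called 4 of 13 mitochondrially encoded genes, 1 keratinocyte and 1 epidermal T cell marker lower among all genes, and none of these among genes above background alone. Keratinocyte markers had a median of -0.59, with 12 of 12 negative, and mitochondrially encoded genes, a sign of RNA and cell quality, one of -1.28, with 13 of 13 negative. On library totals these medians were -1.49, 0.03 and -0.29. Neutrophil markers summed to 69.8 and 258 CPM in imiquimod 1 and 2, against 11.9 and 48.3 CPM in Vaseline 1 and 2. The summed sebaceous and follicle markers were 703 and 108 CPM in imiquimod 1 and 2, against 419 and 748 CPM in Vaseline 1 and 2. Fibroblast markers summed to 31.7 and 66.7 CPM in imiquimod 1 and 2, against 42.8 and 146 CPM in Vaseline 1 and 2. EdgeR called 2 of 7 neutrophil markers higher and 1 fibroblast and 1 B cell marker lower, where 0.0634% of all genes passed as higher and 0.137% as lower. Among genes above background alone edgeR called none of these. DESeq2 called 1 sebaceous and follicle, 1 fibroblast and 1 B cell marker lower among all genes. Among genes above background alone it called 2 neutrophil markers higher and 1 B cell marker lower, where 0.701% of genes were called higher and 1.1% lower. B cell markers summed to 13.2 and 20.8 CPM in imiquimod 1 and 2, against 36.3 and 78.6 CPM in Vaseline 1 and 2. The largest sum of any other list was 64.9 CPM. No marker of the Langerhans cell, keratinocyte or epidermal T cell lists was at 0 in any library. The part of these cell types and of RNA quality in the values of the adhesion genes was not tested.

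**Figure D5:**
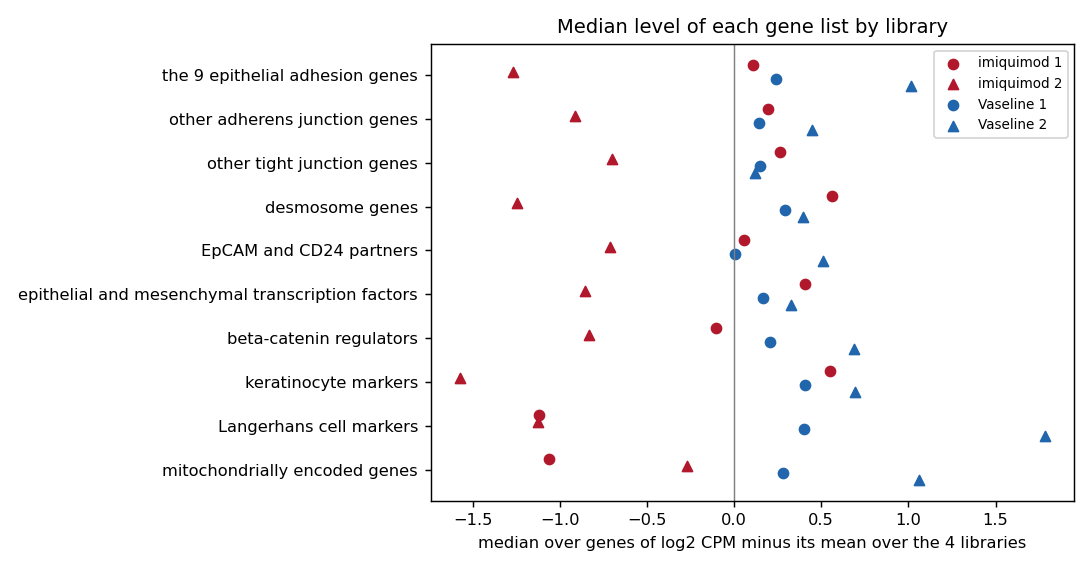
For each gene list, the median over its genes of log2 CPM centred on the gene's mean over the 4 libraries, imiquimod in red and Vaseline in blue. The adhesion genes stand at 0.11 and -1.27 in imiquimod 1 and 2, against 0.24 and 1.012 in Vaseline 1 and 2, with keratinocyte markers low in imiquimod 2 alone and Langerhans cell markers low in both imiquimod libraries; the scale is TMM-normalised and its zero moves with the scaling.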

How the data were processed

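The authors deposited whole-number counts per Ensembl gene, with no scaling to depth. The tools named, per the submitters' processing notes, are HISAT2, StringTie, Trimmomatic and SAMtools, with the build GRCm38; versions, the annotation, the strand setting and the treatment of multi-mapped reads are not given in the sources used here. Per the labels' protocols, libraries were made from 10 to 70 ng of total RNA with a stranded SMARTer pico kit. Columns were matched to samples by the codes in their names.

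From 55487 genes, filterByExpr (minimum count 10, total 15) kept 39439. These were fitted with TMM factors and edgeR 4.0.16 in R 4.3.3 (quasi-likelihood, current form), with Benjamini-Hochberg adjustment over these at 0.05. The common dispersion was 0.369. The SE is the fold change over the root of F. Exon lengths and overlaps came from GENCODE vM21 (bedtools 2.31.1), which held 55227 of the genes. Genes above background had a ratio to each library's own receptor background of at least 5 as a mean over the 4 libraries. DESeq2 1.42.0 and limma-voom (limma 3.58.1) were alternatives. Likeness used counts plus 0.5. Counts are of reads, not molecules.

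Members and lists were chosen with earlier results of these data known. Besides all 9 members, the 3 genes of smallest p per list were named. Some values of the likeness and marker lists are not reported here.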

Additional observations from a re-analysis of the deposited data

How the results depend on the processing

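The count of genes called by edgeR, 25 higher and 54 lower in imiquimod, changed with most settings. RLE scaling gave 17 and 14, upper-quartile scaling 41 and 56, and library totals alone 8 and 5. The counts were 5 and 728 with DESeq2 and 41 and 136 with limma-voom. It was 0 and 0 with no filter (3185 and 1996 at an unadjusted p under 0.05), 27 and 124 with the stricter filter, and 0 and 0 for genes above background alone (771 and 690 at an unadjusted p under 0.05). The older quasi-likelihood form gave 3 and 5, and DESeq2 on genes above background alone 99 and 155, both chosen after seeing the data. Leaving out 1 library gave 8 to 2959 higher, the most without Vaseline 1, and 0 to 317 lower, the fewest without imiquimod 2. Of the adhesion genes, 0 were called under each setting run but DESeq2 on all genes, which called 1 lower. Without any 1 library 0 were called higher and 0 lower. The log2 fold change of Cldn7 reversed to 0.42 on library totals, and that of Cldn4 ran from -2.13 without imiquimod 1 to 2.22 without imiquimod 2. The log2 difference of the Cldn7 to Epcam ratio was 1.21 as counted and -1.31 with the background subtracted. Cldn7 over Cd207 turned from 1.72 to -0.83 and Cldn7 over Krt14 from 0.42 to -2.13 in the same way. The other 22 ratios moved by less than the larger of their group SDs. Ctnnb1 over Krt14 moved from -0.13 to -0.17, which is more than its SD in Vaseline, and its groups then no longer overlapped.

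With the replicate number as a block, 1 gene was called higher and 0 lower, with 0 adhesion genes among them. The labels do not say that the numbers pair the samples. Deviations of same-numbered libraries had a correlation of -0.43. With 2 libraries per group the deviations mirror each other, so the opposite pairing gives the same size with the other sign. The value therefore cannot show whether the numbers pair the samples. Depth limits Cldn7 most, at 21 to 112 counts.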
